A study of Arabidopsis thaliana with 4 samples.

Results

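The regions described here are stretches of the Arabidopsis thaliana genome that were associated with FHY1 and that lie deep inside protein-coding genes, away from both gene ends. They come from chromatin immunoprecipitation followed by sequencing (ChIP-seq), with 3 biological replicates and 1 input sample that was not analysed here. The seedlings carried the transgene 35S:GFP-FHY1 in the fhy1-1 mutant background, were etiolated and 4 days old, and had been exposed to far-red light for 3 h. All samples thus shared the mutant background, the fusion protein and the light treatment, and 35S is a constitutive promoter that does not follow the expression of native FHY1. The antibody is given as anti-GFP in the labels and as anti-FHY1 in the design text. The regions were chosen by the peaks measured in the 3 replicate lists: a stretch under peaks from 2 or more lists was called a shared region. A shared region was deep when its midpoint lay inside a protein-coding gene and more than 500 bp from both ends of that gene and from the end of any other protein-coding gene. There were 1493 deep regions among 17470 shared regions, a share of 8.55% with a 95% Wilson interval of 8.14% to 8.97%. Built from 2 lists alone, the deep regions numbered 1200 without replicate 1, 524 without replicate 2 and 630 without replicate 3.

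FHY1 binds the far-red photoreceptor phyA in the light and carries it into the nucleus, where both are found at the DNA together with transcription factors. FHY1 has no known DNA-binding domain of its own. Binding of transcription factors in plants is usually mapped close to the ends of genes, mostly upstream of the transcription start. The interior of a transcribed gene holds exons and introns, away from the promoter.

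The peak lists held 8423, 28170 and 19150 peaks in replicates 1, 2 and 3, with 4541953, 12651543 and 10390173 tags in peaks. Library depths are unknown, and sums over peaks follow how many peaks were called. Strand, exons and sequence were not used here, so a gene end can be a start or an end of transcription. A distance refers to the nearest end of any protein-coding gene, which is not always an end of the gene that holds the region. Samples of 1 condition were available, and each p-value below rests on 3 differences, 1 within each replicate list. These differences are linked, not independent. A shared region needs peaks in 2 or more lists, and a peak found again in another list has a counterpart found again there.

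Most deep regions were short and lay entirely inside their gene. Their median width was 592 bp (quartiles 298 and 924 bp), against 732 bp for the other shared regions. Stretches under 200 bp numbered 283 among the deep regions (19.0%) and 1017 among the 15977 others (6.37%). The deep regions covered 1.09 Mb of the 13.9 Mb of shared regions. They began and ended inside the gene in 1329 cases (89.0%), crossed 1 gene end in 118 cases (7.90%) and spanned the whole gene in 46 cases (3.08%). A midpoint can therefore be deep while the signal is not. Every peak summit over the region was deep in 779 members (52.2%), some were in 530 (35.5%), and none was in 184 (12.3%).

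Shared regions became sparser with distance from the gene end. Within genes there were 321 shared regions per Mb of gene body at 0 to 250 bp from the nearest end, and 93.9 per Mb at 250 to 500 bp. Beyond the limit the density was 56.1 per Mb at 500 to 750 bp, 44.0 per Mb at 750 to 1000 bp, 34.8 per Mb at 1000 to 1500 bp, 25.5 per Mb at 1500 to 2500 bp and 10.9 per Mb farther in. The median deep region lay 855 bp from the nearest end (quartiles 647 and 1209 bp). The median relative position of the midpoint was 0.335 of the gene length from the nearer end of the gene that holds it. On this scale 0.5 is the middle of the gene. The farthest from an end was in AT1G67120, at 11005 bp, and it was 182 bp wide. The next were in TIL1, at 5997 bp, and in SDG2, at 5250 bp.

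**Figure D1:**
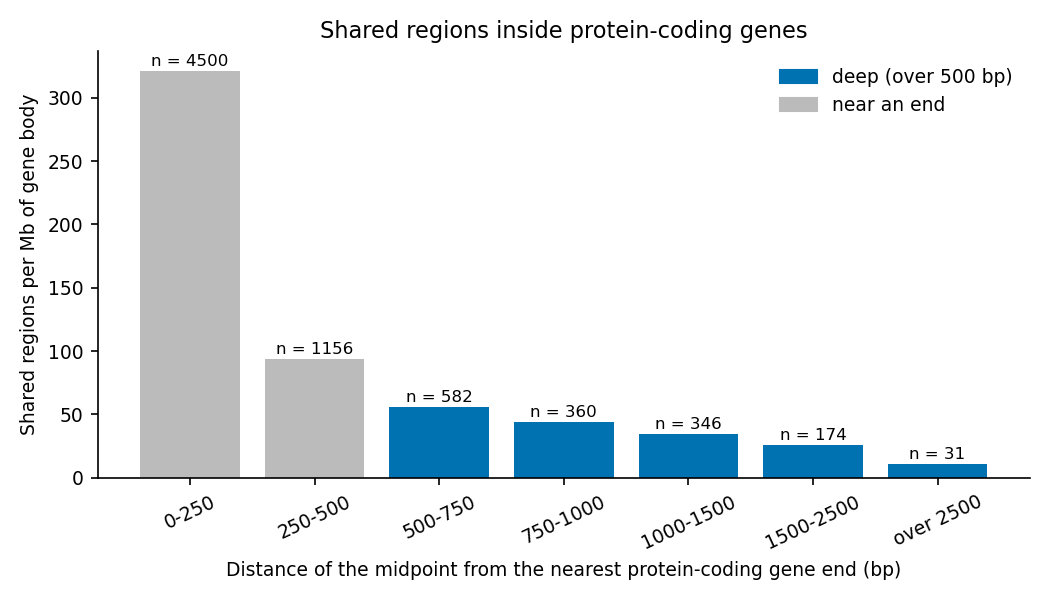
Number of shared regions per Mb of gene body (vertical axis) by the distance of the midpoint from the nearest protein-coding gene end in bp (horizontal axis), with deep regions in blue, regions nearer to an end in grey and the number of regions above each bar. The density is 321 per Mb next to the ends and 10.9 per Mb more than 2500 bp inside.

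Density in the deep part of genes was alike over the chromosomes. It was 40.2, 39.3, 38.2, 41.2 and 37.2 deep regions per Mb of such sequence on chromosomes 1, 2, 3, 4 and 5, with 414, 223, 282, 241 and 333 regions.

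The 500 bp limit did not mark a step in the values. The 137 members at 501 to 550 bp had medians of the fold of 3.86, 3.93 and 4.22 over the lists. For the 143 shared regions at 451 to 500 bp it was 3.95, 3.91 and 4.18. The nearest members inside the limit were in AT2G48090 at 501 bp, in TOM2B, AT2G43870 and AILP1 at 502 bp, and in AT1G67520 at 503 bp. Just outside it were regions in PIP2B, AT3G45090 and MYB34 at 500 bp, and in AT1G49500 and HSP70T-2 at 499 bp.

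Coverage by all replicates had a lower share among deep regions than among shared regions elsewhere, which is a description, since regions are not replicates and no test was run over them. A replicate is said here to cover a region when a peak of its list overlaps it by 1 bp or more. All 3 replicates covered 366 deep regions in this sense, which is 24.5% (22.4% to 26.8%), against 34.4% (33.7% to 35.2%) of the other shared regions. The figure over all shared regions was 33.6%. Among the others it was 34.9% for midpoints inside a gene within 500 bp of an end, 38.3% for midpoints outside genes within 500 bp of an end, and 28.4% for those farther away. The difference had no step at the limit, since 36.5% of the members at 501 to 550 bp were covered by all 3 replicates. Farther in, the share did not fall steadily. It was 29.6% at 500 to 750 bp, 18.3% at 750 to 1000 bp and 26.3% at 1000 to 1500 bp. Among regions at 1500 to 2500 bp the share was 20.1%, and beyond 2500 bp it was 6.45%, which is 2 of 31 regions. Among deep regions at least 200 bp wide, the share covered by all 3 replicates was 30.2% (366 of 1210). The share of the other shared regions at this width was not computed, and the part of region width in the difference was not tested.

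Which pair of replicates supplied a region differed as well. Replicates 2 and 3 without replicate 1 gave 51.6% of the deep regions and 52.3% of the others. Replicates 1 and 2 without replicate 3 gave 14.3% of the deep regions and 7.08% of the others. Replicates 1 and 3 without replicate 2 gave 9.65% of the deep regions and 6.24% of the others.

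The authors also deposited a list of regions for the whole series, made from the same libraries and therefore no independent measurement. It overlapped 151 deep regions, or 10.1% (8.69% to 11.7%), against 17.3% (16.8% to 17.9%) of the other shared regions. Over all shared regions the overlap was 16.7%. Without replicate 2 it was 26.5% of the 524 deep regions so built, and without replicate 3 it was 22.4% of 630. The overlap of the other shared regions was not computed for these 2 settings, so these values cannot be set against 17.3%.

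The summits of the peaks over deep regions lay farther apart between replicates. Across the replicates the summits of a deep region covered by all of them lay within a median range of 311.5 bp (n = 366 regions), against 121 bp for the other shared regions (n = 5499). The range was at most 200 bp for 43.7% of these deep regions and for 65.6% of the others. Each summit is that of the peak with the highest fold over the region, and it can lie outside the region. In 88 of the 366 deep regions no summit was deep. The part of peak width in these ranges was not tested.

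The median enrichment of deep regions was slightly lower in each of the 3 lists, in a test that could not pass 0.05. The authors' fold enrichment is a ratio over a background that is not stated, and it can be compared only within a list. The lowest fold in each list was 2.95. In replicate 1 the median fold was 3.87 for deep regions and 4.11 for the other shared regions. In replicate 2 it was 3.94 for deep regions and 4.35 for the others. In replicate 3 it was 4.06 for deep regions and 4.38 for the others. The distributions overlapped widely, and the upper quartiles of the deep regions, 4.67, 4.68 and 4.75, lay above the medians of the others in all 3 lists. The mean difference of the median log2 fold, deep minus other, was -0.11 ± 0.03 (SD, n = 3 replicates, exact two-sided sign-flip permutation test, p = 0.25, adjusted 0.333 over 4 tests). With 3 replicates 0.25 is the smallest p this test can give. A fold of at least 5 was reached by 18.5% of the deep regions and 22.0% of the others in replicate 1. The shares were 18.2% and 30.8% in replicate 2, and 20.2% and 29.9% in replicate 3. For midpoints inside a gene within 500 bp of an end they were 18.2%, 27.6% and 27.1% in replicates 1, 2 and 3. Against these, deep regions were not lower in replicate 1.

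**Figure D2:**
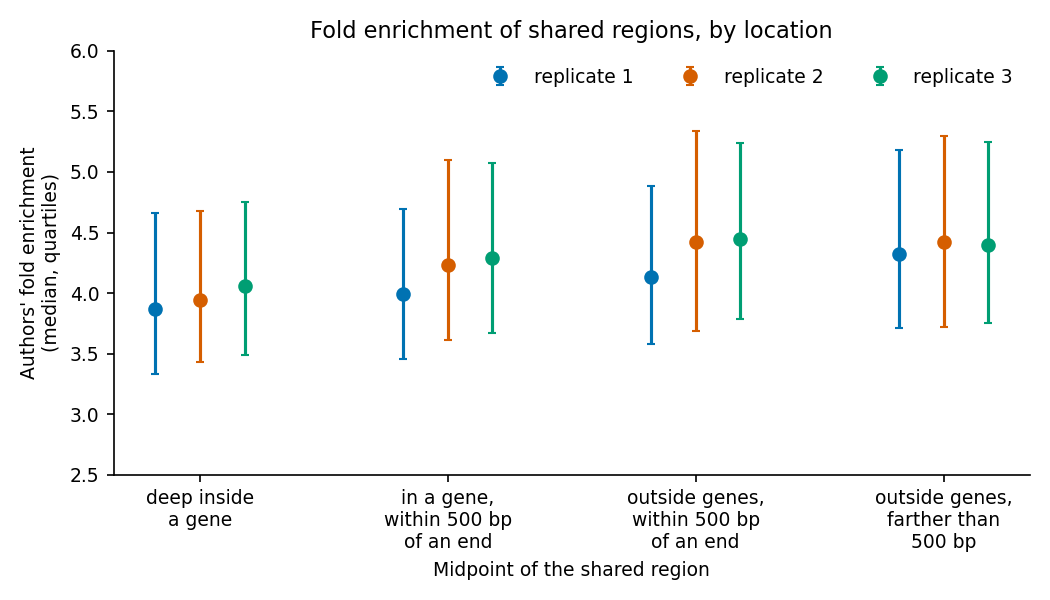
Authors' fold enrichment (vertical axis, a ratio within each list) of shared regions by location, with points for the median and bars for the quartiles in each replicate. Deep regions, at the left, have the lowest median in each list, at 3.87, 3.94 and 4.06, and their quartiles overlap those of the other locations.

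Tags per kb of peak differed in the same direction. The medians were 425, 526 and 494 tags per kb for deep regions in replicates 1, 2 and 3, against 435, 570 and 530 for the others. In replicate 1 the other locations had 428 in genes within 500 bp of an end, 449 outside within 500 bp and 420 farther away. Deep regions were thus not the lowest location in that list, as they were in replicates 2 and 3. The mean log2 difference, deep minus other, was -0.08 ± 0.04 (SD, n = 3 replicates, exact permutation test, p = 0.25, adjusted 0.333). The width of the peaks over the regions had no common direction. Median widths were 1332, 810 and 1021.5 bp for deep regions and 979, 870 and 960 bp for the others. The mean log2 difference was 0.14 ± 0.28 (SD, n = 3 replicates, exact permutation test, p = 0.75, adjusted 0.75). Without replicate 1 it was -0.010, and with only members whose summits were all deep it was -0.088.

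Deep peaks of a single list were found again in another list less often than peaks elsewhere. Here every peak of a list counts, also those in no other list. In replicate 1, 86.7% of 850 deep peaks overlapped a peak of another replicate, against 93.3% of the other peaks, with 92.6% over the whole list. In replicate 2 it was 29.2% of 4623 deep peaks and 61.7% of the other peaks, with 56.4% over the list. In replicate 3 it was 54.2% of 2056 deep peaks and 80.2% of the other peaks, with 77.4% over the list. The mean difference was -21.7 ± 13.5 percentage points, deep minus other (SD, n = 3 replicates, exact permutation test, p = 0.25, adjusted 0.333). Within each list, deep peaks were found again less often in all 12 strata of fold and in 11 of 12 strata of width, both chosen after the values were seen. Peaks of at least 2000 bp were nearly all found again wherever they lay, at 96.0%, 97.0% and 94.7% of the deep ones and 95.7%, 97.5% and 97.6% of the others.

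**Figure D3:**
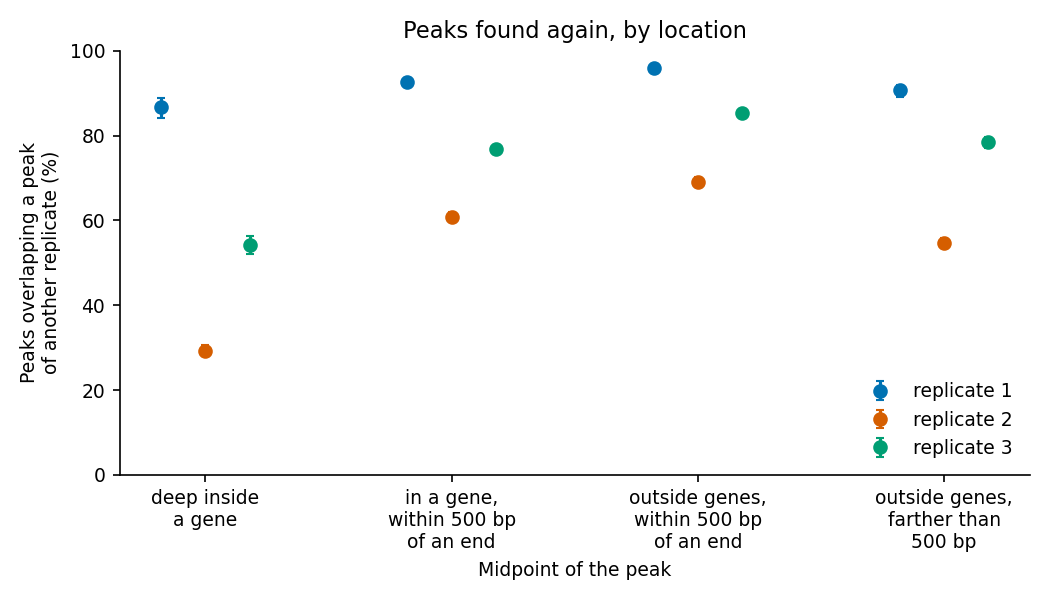
Share of the peaks of each replicate list sharing 1 bp or more with any peak of the other lists (vertical axis, %) by the location of the peak's midpoint (horizontal axis), with 95% Wilson bars that cover counting error only. The deep peaks, at the left, have the lowest share in each replicate, at 86.7%, 29.2% and 54.2%.

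The share of deep positions was lower in more strictly chosen sets of peaks. It was 10.1%, 16.4% and 10.7% of the peaks of replicates 1, 2 and 3. Among peaks in no other list it was 18.2% of 621 in replicate 1, 26.6% of 12288 in replicate 2 and 21.7% of 4332 in replicate 3. It was 6.39% of the stretches lying wholly under peaks of all 3 replicates and 5.03% of the regions of the series list. From the fifth of peaks with the lowest fold to the fifth with the highest, the deep share in replicate 2 ran 26.7%, 21.2%, 16.4%, 11.3% and 6.43%. In replicate 3 it ran 18.8%, 13.3%, 10.1%, 6.97% and 4.57%. In replicate 1 it ran 15.4%, 11.4%, 8.84%, 7.30% and 7.54%.

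**Figure D4:**
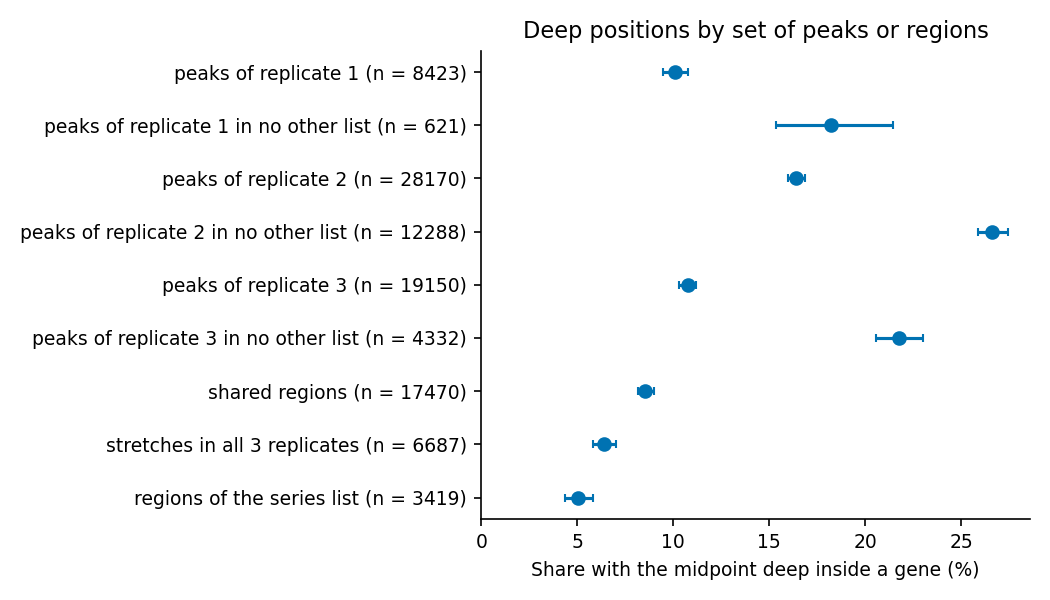
Share of peaks or regions whose midpoint is deep inside a protein-coding gene (horizontal axis, %), for each replicate list, for the peaks of that list found in no other, for shared regions, for all-3 stretches and for the series list, with 95% Wilson bars. The shares run from 26.6% in peaks of replicate 2 that were not found again to 5.03% in the series list.

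The shape of the overlap with the gene went along with these values. Of the 1329 regions lying wholly inside the gene, 17.7% were covered by all replicates and 6.40% were in the series list. For the 118 that crossed a gene end these shares were 76.3% and 35.6%, and for the 46 that spanned the gene they were 89.1% and 52.2%. Contained regions were 533 bp wide at the median. Spanning regions were 2616 bp wide at the median and lay on genes with a median length of 1577.5 bp. Any overlap by a peak counts as coverage, and the part of region width in these shares was not tested. Median folds in replicates 1, 2 and 3 were 3.80, 3.87 and 4.00 for contained regions and 4.15, 4.99 and 4.74 for spanning ones. The 366 members seen in all replicates were thus 235 contained, 90 crossing and 41 spanning regions.

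The deep regions lay in 1317 genes, which is 4.8% of all 27444 protein-coding genes and 5.71% of the 23055 that are longer than 1001 bp and so have room for one. Without replicate 2 there were 500 such genes, and without replicate 3 there were 580. The share was 3.16% for genes of 1001 to 2000 bp, 5.78% for 2000 to 3000 bp, 8.24% for 3000 to 4000 bp, 9.54% for 4000 to 6000 bp and 9.09% above that. A region at a gene end was present for 62.4% of the genes with a deep region and for 49.4% of the other genes of this length. In genes of 1001 to 2000 bp these shares were 61.8% and 42.5%, and in those above 6000 bp they were 58.8% and 56.9%. In 490 of the 822 genes with both kinds of region, the same peak lay over the deep region and the end region. The other 332 genes, 25.2% of all genes with a deep region, had separate peaks.

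Other annotated genes were rare under deep regions. A non-coding gene or pseudogene overlapped 73 of them (4.89%), against 1754 of the 15977 other shared regions and 7.02% of the regions inside genes near an end. Transfer RNA genes overlapped 5 deep regions (0.335%), against 1.77% of the others. Both members of NUDT22 at 14351718 to 14352602 and 14354720 to 14355386 on chromosome 2 lay over a transfer RNA gene.

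Several regions in a gene often lay under the same peak. A single deep region was found in 1166 genes, 2 in 128 genes, 3 in 21 genes and 4 in 2 genes. Of the 176 pairs of neighbouring deep regions within a gene, 120 (68.2%) shared a peak in at least 1 replicate. The genes with 4 were TGA9, which encodes a bZIP transcription factor, and ABCG25, which encodes an exporter of abscisic acid. In TGA9 the regions spread over the gene from 2622457 to 2628090 on chromosome 1. Their folds in order of position were 5.79, 3.42, 3.48 and 5.36 in replicate 2 and 4.30, 3.35, 4.30 and 4.30 in replicate 3. In ABCG25 they spread from 27083525 to 27086945 on chromosome 1, with folds of 5.86, 3.92, 5.44 and 5.44 in replicate 2 and 4.04, 4.04, 4.24 and 3.58 in replicate 3. Neither gene had a deep region that replicate 1 covered. The genes with 3 regions, listed after the values were seen, included the amino acid transporter genes AAP1 and LHT1, the NADPH oxidase gene RBOH F, the AP2 transcription factor genes WRI1 and WRI4 and the brassinosteroid P450 gene ROT3.

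The strongest deep regions seen in all replicates were ranked by the mean percentile of their fold within each list. At the top stood NRT1.1, which encodes a nitrate transporter and sensor. Its region on chromosome 1 from 4106761 to 4107530 lay 1922 bp from the nearer end and had folds of 6.35, 8.38 and 6.32 in replicates 1, 2 and 3. The peaks over it held 470, 535 and 897 tags, and every summit was deep. A second region of NRT1.1, from 4107576 to 4108361, lay under the same peak of replicate 1 and had folds of 5.75 and 3.73 in replicates 2 and 3. The first region was not in the series list.

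The next regions by this rank were of mixed kinds. AILP1 on chromosome 5 from 6422755 to 6424859 had folds of 6.53, 6.50 and 6.54 in the 3 replicates, but its region crossed a gene end and no summit was deep. RALFL34, a gene for a secreted peptide, had folds of 5.26, 8.71 and 6.92, and its region from 26766873 to 26769341 on chromosome 5 spanned the gene. CAF1a, which encodes a deadenylase, had folds of 5.27, 5.82 and 6.19, also over the whole gene. GAE1, which encodes an epimerase that makes a pectin precursor, had 5.66, 5.59 and 5.71 with a region that crossed an end. The heat shock factor gene HSF4 had 5.63, 6.14 and 5.23, the peptide gene RALF23 had 5.83, 5.15 and 5.49, and OPCL1, which encodes a CoA ligase of jasmonate synthesis, had 6.59, 5.41 and 5.05. All 3 crossed an end. TCP9, a transcription factor gene, had 9.70, 5.14 and 4.99 over a region of 4877 bp that ran past both ends.

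Of these 20 top regions, 9 were contained, 6 crossed an end and 5 spanned the gene, and none of the summits was deep in 10 of them. Their median width was 1647.5 bp, and 13 were in the series list. Every summit was deep in 8. Besides NRT1.1 these included the bromodomain gene GTE7, with folds of 6.05, 4.79 and 6.65 on chromosome 5 from 26227527 to 26229461. They also included AT4G13840 with 5.78, 5.35 and 5.75, AT2G06025 with 5.10, 6.39 and 5.75, and AT4G32030 with 5.52, 5.71 and 5.60. EDA6 had 6.67, 4.93 and 5.21, AT5G12440 had 4.67, 5.84 and 6.26, and AT1G53430 had 4.85, 5.03 and 7.28.

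Ranking only members with all 3 summits deep, a choice made after the values were seen, brought in further genes. WOL, which encodes a cytokinin receptor, had folds of 4.39, 7.82 and 5.72 on chromosome 2 from 368399 to 369280. SSL2 had 8.16, 4.40 and 5.50, and the homeodomain gene HB53 had 4.22, 5.61 and 6.63. CSLA9, which encodes a mannan synthase, had 7.17, 4.14 and 5.60 on chromosome 5 from 987357 to 988306.

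The highest fold of any member in each list fell to regions with uneven support. FHY3 led replicate 1, as described below. In replicate 2 ROC3 had 8.92, with a region over the whole gene and folds of 3.72 and 5.82 in replicates 1 and 3. In replicate 3 AT1G62660 had 8.95, with 4.34 in replicate 1 and no peak in replicate 2. The widest members also ran over whole genes. AT5G25280 was covered over 5614 bp, TCP9 over 4877 bp, AT1G75800 over 4762 bp and AT5G13100 over 3903 bp, and among the 5 widest only BXL1, at 3996 bp, lay within its gene.

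Where the series list held a member, its peak heights gave another view of strength. The heights are the authors' own, on a scale that is not stated. RALFL34 was highest, at 455 ± 137 (SD, n = 3), followed by AT1G78410 at 375 ± 112 and AT2G03370 at 297 ± 77.9. ANL2 had 274 ± 12.9 and AT4G37690 had 268 ± 10.7, so that their 3 samples differed little. The region of RALFL34 spanned the gene, and those of AT1G78410, ANL2 and AT4G37690 crossed a gene end. No summit was deep in RALFL34 and ANL2, and only some were in AT4G37690. AT2G03370 lay within its gene and, like AT1G78410, had every summit deep.

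Genes of a light signalling list, mostly of phytochrome and far-red signalling, held deep regions in 6 of 36 cases (16.7%), against 4.8% of all protein-coding genes and 8.24% of those of 3000 to 4000 bp, the length class of the list's median gene (3042.5 bp). The list includes 4 blue-light receptor genes, of which PHOT1 and PHOT2 held deep regions. Without these receptors, a split made after the values were seen, 4 of 32 genes (12.5%) did. Over the whole list of 36 genes the count was 3 without replicate 1, 2 without replicate 2 and 5 without replicate 3, against 6 with all replicates. PHOT1, which encodes a blue-light receptor kinase, had a contained region at 16817151 to 16817861 on chromosome 3. Its folds were 5.00, 4.82 and 5.22, and all summits were deep. It was also in the series list. A second region of PHOT1, from 16819630 to 16820606, had folds of 3.99 and 6.07 in replicates 2 and 3. PHOT2, its relative, had 3.74 and 3.37 in replicates 1 and 2.

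FHY3 and FAR1 encode transposase-derived transcription factors that activate FHY1 and its homologue FHL. FHY3 had the highest fold of any deep region, 13.01 in replicate 1, but only 3.97 in replicate 2 and no deep peak in replicate 3. The region was on chromosome 3 from 7823255 to 7824046, and the peak of replicate 1 ran from 7822022 to 7824046 with 1654 tags. This peak was rank 29 of the 8423 peaks by fold. In replicate 3 the peaks at this gene were near its ends, with folds of 4.51 and 4.54. FAR1 had 4.85 and 3.52 in replicates 1 and 2, on chromosome 4 from 8616711 to 8617258.

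PIF3 and PIF4 encode bHLH factors that bind phytochromes. PIF3 had a region from 3076657 to 3077676 on chromosome 1 with folds of 5.48, 3.39 and 4.04 in replicates 1, 2 and 3. A second one from 3077879 to 3078312 lay under the same peak of replicate 1 and had 3.90 in replicate 3. PIF4 had 3.67 and 3.69 in replicates 2 and 3, with a midpoint 507 bp from the end.

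Auxin genes held deep regions in 7 of 24 cases (29.2%), all 7 of them transporters. PIN proteins carry auxin out of the cell, AUX1 and LAX proteins carry it in, and ABCB19 is an exporter of the ABC class. PIN7 was covered in all replicates, with folds of 6.74, 4.04 and 3.71 and all summits deep. Its region was on chromosome 1, at 8180874 to 8181923. The other 6 had no peak over the region in replicate 1. PIN3 had 5.26 and 5.80 in replicates 2 and 3, with a region that crossed an end, and PIN4 had 4.44 and 3.35. AUX1 had 2 regions, with 5.26 and 4.00 in the first and 4.32 and 4.58 in the second. LAX1 had 2 as well, with 3.55 and 4.83 in the first and 3.5 and 3.97 in the second. LAX2 had 4.21 and 4.80, and ABCB19 had 6.11 and 4.66. Without replicate 2 the count was 1 gene, and without replicate 3 it was 2.

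Proton pumps and ABC transporters held them in 6 of 20 cases (30%). AHA proteins are the proton pumps of the plasma membrane. AHA3 had folds of 4.78, 5.07 and 6.08 on chromosome 5 from 23235188 to 23236006, and AHA1 had 4.70, 4.19 and 5.39 on chromosome 2 from 8222161 to 8223310. Both had all summits deep and were in the series list. AHA2 had 3 regions, each covered by 2 replicates, with folds between 3.24 and 5.06. The last of them by position crossed a gene end and had no deep summit. It lay under the same peak of replicate 3 as the region before it. That peak gave both the fold of 5.06, and its summit was not deep. AHA4 had 3.62 and 3.21, the vacuolar transporter gene ABCC1 had 4.24 and 3.42, and the zinc pump gene HMA4 had 3.44 and 3.91, all in replicates 2 and 3. The count was 2 genes without replicate 2 and 3 without replicate 3.

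**Figure D5:**
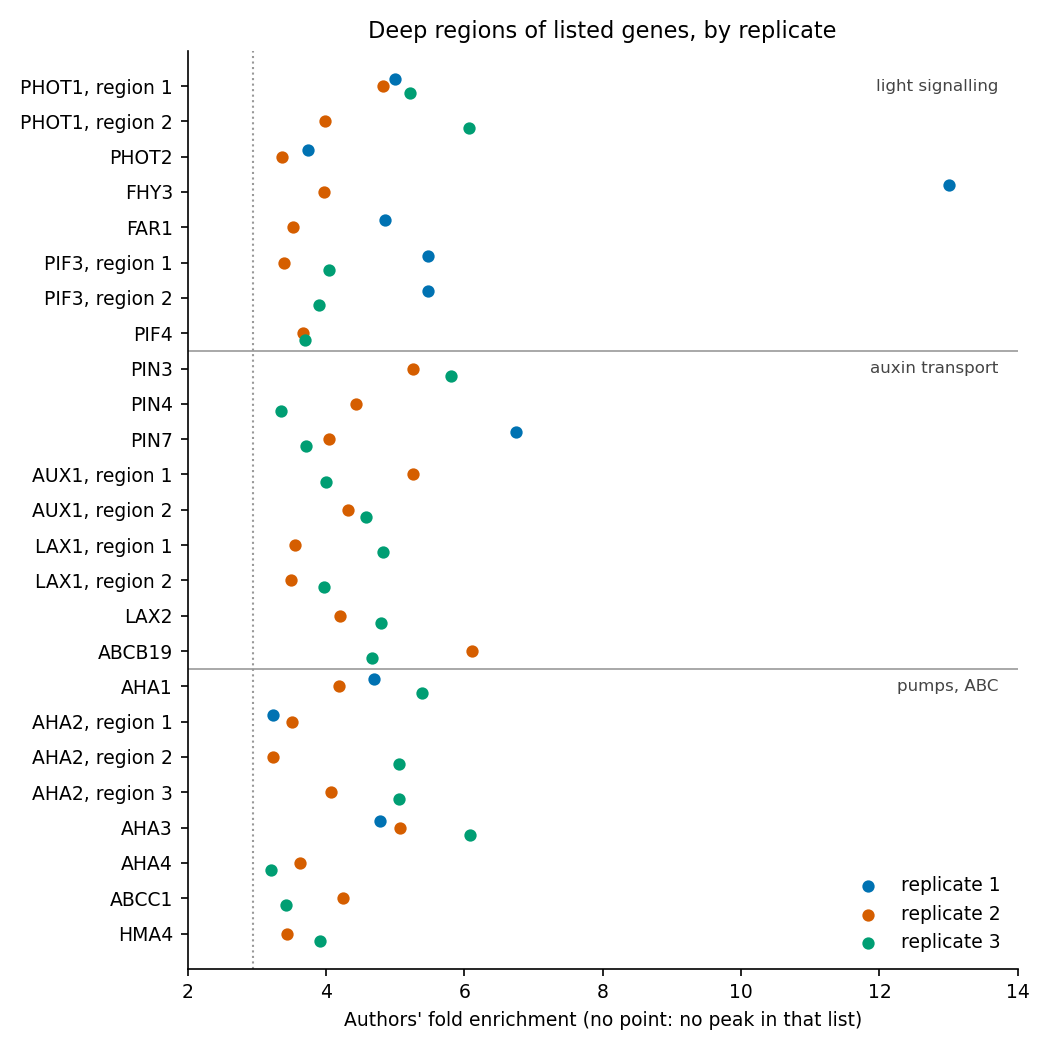
Authors' fold enrichment (horizontal axis) of the deep regions in listed light signalling, auxin transport and pump or ABC transporter genes, with 1 point for each replicate that has a peak over the region and a dotted line at the lowest fold in the lists, 2.95. FHY3 stands apart at 13.01 in replicate 1 only, and PHOT1 region 1, PIF3 region 1, PIN7, AHA1 and AHA3 have points in all 3 replicates.

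The median listed auxin gene was 4016 bp long, and the share over all genes of 4000 to 6000 bp was 9.54%. The median pump or ABC gene was 6021.5 bp long, and the share over all genes above 6000 bp was 9.09%. Other lists of long genes had lower shares, with 6.25% for chromatin regulators (median 5705 bp) and 9.52% for actin, myosin and microtubule motors (median 6683 bp). The part of gene length in these counts was not tested. Families with similar coding sequences make up most of both groups, and how reads with several alignments were treated was not stated. Its part in the values was not tested. Within whole families, which were added after the values were seen, 3 of 8 PIN genes, 3 of 4 AUX1 and LAX genes and 4 of 11 AHA genes had a deep region. In the remaining members deep peaks were confined to 1 replicate, and AHA6 and AHA9 had none. Examples were LAX3 with 5.24 and PIN6 with 5.07 in replicate 2 and AHA10 with 4.45 in replicate 3. AHA2, which had deep regions, also had deep peaks in replicate 2 only.

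The other lists had shares closer to the 4.8% over all protein-coding genes. By the length class of each list's median gene, the share over all genes was 8.24% for receptor kinases. It was 9.54% for chromatin regulators and for cell wall synthesis, and 9.09% for the motor list. Receptor kinases had a deep region in 3 of 30 genes (10%), each covered by 2 replicates, in FLS2, the flagellin receptor gene, at 3.43 and 3.28, in EFR, which encodes the receptor of a bacterial elongation factor, at 3.93 and 4.15, and in RLK1 at 3.20 and 3.90. Chromatin regulators had 2 of 32 (6.25%), the histone methyltransferase gene SDG2 at 3.68 and 4.01 and the deacetylase gene HDA6 at 2.96 and 3.05. Cellulose and cell wall synthesis had 2 of 21 (9.52%), CSLA9 and the xyloglucan gene CSLC4, which had 5.39 and 4.54. Actin, myosin and microtubule motors also had 2 of 21, ACT2 with 3.01 and 6.08 and no deep summit, and KINESIN-12A with 2.97 and 3.35. Without replicate 2 or without replicate 3, 0 to 2 genes of each of these 4 lists had a deep region.

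No deep region was found in 17 circadian clock genes, where a count of 0 allows a share of up to 17.6%, although 15 of them had a region at an end. None was found in 15 cytosolic immune receptor genes either, which allows up to 20%, and 4 of these had a region at an end. The share over all protein-coding genes was 4.8%. For the length class of the median gene it was 8.24% for the clock list (3445 bp) and 9.54% for the immune receptor list (4412 bp). Both shares lie below the limits for a count of 0. In light harvesting and chlorophyll synthesis, a list of mostly short genes (median 1687 bp), 2 of 26 (7.69%) had one, against 3.16% of all genes of 1001 to 2000 bp. The 2 genes were LHCB4.1, an antenna protein gene, with folds of 3.91, 4.80 and 4.52, and RBCS1A, which encodes the Rubisco small subunit, with 3.89, 4.05 and 8.0. Both regions spanned the gene, and neither had a deep summit.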

How the data were processed

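The submitters' processing notes name Bowtie as aligner tool and TAIR10 as build. How peaks were called, and over which background, is not given in the sources used here. For each replicate the authors deposited a peak list without a header, and the columns were identified from their layout and values. Each deposited list gives a tag count per peak, the authors' score, which was not used for any value here, a fold enrichment ratio, and a false discovery rate in percent. The list that the authors deposited for the series holds peak heights, a signal of unstated scale, and its samples were not matched to replicates. Folds and heights describe peaks within a list.

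A region took the highest fold of the peaks over it in each list, so 1 peak can serve several regions. Gene ends, names and types were taken from RefSeq (TAIR10.1), used for distances and lengths but not for coordinates. As a check, 51.2% of the shared region midpoints lay within 250 bp of a gene end, against 21.4% and 21.0% after shifts of 2000 bp either way. Locations were deep, in a gene within 500 bp of an end, outside within 500 bp, or farther.

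The members and lists were chosen with earlier results of these data known. Named genes were the 20 top members by mean fold percentile, members of the gene lists, genes with at least 4 regions, the 5 widest, and 5 on each side of the limit. Other genes were named after their values were seen: those with 3 regions, farthest from an end, highest in fold or series height, high among members with all summits deep, or over transfer RNA genes. All listed genes were matched. Differences were tested over replicates, each list being its own block, with an exact sign-flip test and Benjamini-Hochberg adjustment over 4 tests. Wilson 95% intervals and limits for a count of 0 (3 counts) cover counting error only. Scripts were tested on simulated data and used Python 3.11.15, numpy 2.4.6, pandas 2.3.3, scipy 1.17.1 and matplotlib 3.10.9. The planned motif search and exon classes were not run, since no sequence, exons or strand were used here.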

Additional observations from a re-analysis of the deposited data

How the results depend on the processing

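The differences in fold, tag density and peaks found again kept their direction under every alternative run: -0.14 to -0.05 and -0.12 to -0.04 on the log2 scale, and -28.9 to -12.0 percentage points. With a fold of at least 4, only 2 of 3 lists had lower fold and tag density. The width difference turned negative with only members whose summits were all deep (-0.088) and ranged from -0.010 to 0.33 without 1 replicate. The number of deep regions was 2649 with a limit of 250 bp, 551 with 1000 bp, 966 with a false discovery rate of at most 1%, 454 with a fold of at least 4, 427 in all-3 stretches, 779 with every summit deep and 524 to 1200 without 1 replicate. The deep share of shared regions was 15.2%, 3.15%, 7.69%, 5.51% and 6.39% under the first 5 of these, 7.48% for stretches of at least 200 bp and 7.16% to 8.04% without 1 replicate. The share covered by all 3 replicates was 27.8% at 250 bp, 20.1% by false discovery rate, 22.0% by fold, 30.2% from 200 bp of width, 22.1% by summit position, 17.7% for contained members and 21.6% with every summit deep. It has no value without a replicate or in all-3 stretches. Overlap with the series list was 12.5% at 250 bp, 11.8% by false discovery rate, 20.7% by fold, 12.5% from 200 bp of width, 30.7% in all-3 stretches, 8.58% by summit position, 6.4% for contained members, 8.60% with every summit deep and 11.2% to 26.5% without 1 replicate. Genes with a deep region numbered 2306, 488, 865, 427, 390 and 677 under the 6 settings given first for the regions, and 500 to 1057 without 1 replicate. The relative position was 0.260 at 250 bp, 0.393 at 1000 bp, 0.345 by fold and 0.331 to 0.345 without 1 replicate. Listed genes with a deep region numbered 10 without replicate 2, 15 without replicate 3 and 24 without replicate 1, against 30. Auxin genes numbered 1, 2 and 7 in that order, and pumps and ABC transporters 2, 3 and 6. The 2 alternatives on contained members and on summits were chosen after seeing the data, and the cause of these changes was not tested. The motif alternative was not run. No paired analysis was possible between sample groups because the input, which was not analysed here, has 1 sample and so shares only 1 replicate number with the ChIP. The differences between locations were taken within each list. Library depth is unknown, and its part in peaks missing from replicate 1, which had the fewest, was not tested.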
